A study of Mus musculus with 2 samples.

Results

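Ighd-positive B cells are mature B cells that carry IgD beside IgM on their surface, the class to which follicular B cells belong. They were examined here in single-cell RNA profiles of mice with 4T1 liver metastases given a vehicle or CBL0137. A barcode (the tag of 1 droplet, normally 1 cell) was taken when it held at least 3 UMIs of Cd79a, Cd79b and Ms4a1 together, at least 1 UMI of Ighd and no UMI of Cd3d, Cd3e or Cd3g. A UMI is a unique molecular identifier and counts 1 captured transcript. This rule and the hashtag rule below left 1096 barcodes among the 9591 of the library labelled liver (14421 in the series). The members were thus chosen by the measured UMIs of these genes and of the hashtags, and the levels of these genes below are descriptions.

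The mice were female BALB/c animals (BALB/cAnNCrl in the labels) bought at 7 to 8 weeks of age. All carried 4T1 mammary tumor cells in the liver and were infused through the hepatic artery with the vehicle, with a low dose or with a high dose of CBL0137, a compound that binds DNA and traps the histone chaperone FACT on chromatin. Cells were taken 5 days later, with 2 mice pooled per group, and the 3 groups were mixed in 1 droplet run per organ after labelling with hashtags, antibodies that carry a DNA tag. No amount is tied to the low or the high dose in the sources used here, and the study's methods name CD11b+ bead isolation where the sample labels name leukocytes. CD11b is encoded by Itgam, which had a UMI in 9 of the 400 members given the vehicle (2.25%), in 5 of the 365 given the low dose (1.37%) and in 6 of the 331 given the high dose (1.81%). Among barcodes with at least 100 UMIs of the neutrophil genes S100a8 and S100a9 and no UMI of Cd79a, Cd79b or Ms4a1, the shares with an Itgam UMI were 69.7%, 71.8% and 95.7% in the same order.

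The library labelled liver is the one whose file is named for the spleen. The hepatocyte genes Alb, Apoa1, Ttr, Serpina1a, Apoc3 and Fgb summed to 0.0880 CPM (UMIs per 1000000 UMIs) in it and to 121 CPM in the library labelled spleen. The Kupffer cell genes Clec4f, Vsig4 and Cd5l summed to 9.37 and 427 CPM, and the liver sinusoidal genes Stab2, Clec4g and Lyve1 to 0.628 and 203 CPM. The genes Spic, Vcam1 and Hmox1 of red pulp macrophages of the spleen were also lower in it, at 107 against 281 CPM. The hepatocyte, Kupffer cell and sinusoidal sums thus go with the file name. The red pulp sum goes with the label by value, but the cell types that gave it were not examined. The organ of origin was not tested. The library is called by its label throughout, and no hepatocyte gene had a UMI in any member.

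The hashtag with most UMIs gave the group when it had at least 10 UMIs and at least 3 times those of the next. The 15-base tags, printed because they alone tell the groups apart, were read as follows.
A0301 (vehicle): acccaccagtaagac
A0305 (low dose): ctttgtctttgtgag
A0310 (high dose): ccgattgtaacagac

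The 400 vehicle members had a median of 881.5 UMIs of A0301, the 365 low-dose members 869 of A0305 and the 331 high-dose members 430 of A0310. The leading tag exceeded the next by a median of 64.7-fold, 76.2-fold and 31.6-fold. The rule's edges were thinly filled for the hashtag (13 members lay between 3 and 4 times the next tag, and 7 further B cells between 2 and 3 times) but not for Ighd, since 156 members held exactly 1 Ighd UMI and 254 B cells with a hashtag held none. For the B cell genes, 34 members had exactly 3 UMIs against 31 barcodes with 2, and 80 barcodes were left out for a Cd3 UMI alone. A further 52 barcodes met the gene terms but had no hashtag call.

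Depth was alike in the 3 groups. Members had a median of 3661.5 UMIs and 1449 genes in the vehicle group, 3456 and 1368 at the low dose and 3707 and 1432 at the high dose. Mitochondrial UMIs made up a median of 4.14%, 4.24% and 3.92%. Summed over members, 1762830, 1509133 and 1408307 UMIs lie behind the levels below. Each group is 1 pooled sample, so no test was possible and no p-value is given. The 95% intervals (exact Poisson for a level, exact conditional binomial for a ratio, Clopper-Pearson for a share) cover counting error only. Those of levels and ratios leave out the spread between cells, and the spread between mice was not measured. Of the 15 barcodes that both libraries share, 2 are members.

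Mature B cells circulate between blood and lymphoid follicles, and in the spleen they divide into follicular cells, which carry the low-affinity IgE receptor CD23 (Fcer2a), and marginal zone cells, which carry much complement receptor CD21 (Cr2) and little CD23 or IgD. Notch2 signalling drives the marginal zone fate and acts through RBPJ on targets such as Hes1, Dtx1 and Cr2. Klf2 keeps follicular cells in their quiescent, recirculating state. Interferon-gamma acts on B cells through gamma-activated sites in promoters and raises GTPases, antigen presentation genes and Ly6a. The promoters of Cr2, Igtp and Serpina3g are printed because they hold letters known from these pathways (RefSeq, GRCm38.p6, the 250 bases before the start, read 5′ to 3′ on the gene's strand).
Cr2, chr1:195176720-195176969 (minus strand): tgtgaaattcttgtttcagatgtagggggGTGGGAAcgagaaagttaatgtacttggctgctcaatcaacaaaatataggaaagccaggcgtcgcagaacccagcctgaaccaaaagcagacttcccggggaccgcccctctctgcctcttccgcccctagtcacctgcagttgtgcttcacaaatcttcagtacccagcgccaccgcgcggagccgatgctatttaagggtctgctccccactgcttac
Igtp, chr11:58199306-58199555 (plus strand): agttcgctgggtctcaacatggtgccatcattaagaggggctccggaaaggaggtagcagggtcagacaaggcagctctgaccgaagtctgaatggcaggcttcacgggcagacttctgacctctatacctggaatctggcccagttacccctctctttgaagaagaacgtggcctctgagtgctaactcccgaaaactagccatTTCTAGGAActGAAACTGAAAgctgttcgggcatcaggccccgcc
Serpina3g, chr12:104235897-104236146 (plus strand): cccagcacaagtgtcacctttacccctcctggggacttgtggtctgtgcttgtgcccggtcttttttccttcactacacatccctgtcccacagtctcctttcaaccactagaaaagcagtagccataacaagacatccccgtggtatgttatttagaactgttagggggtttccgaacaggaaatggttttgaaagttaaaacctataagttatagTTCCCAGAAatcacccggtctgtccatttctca

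Capitals mark GTGGGAA, the core letters bound by RBPJ, at 221 to 215 bases before the start of Cr2. They mark a gamma-activated site of the form TTCNNNGAA at 45 to 37 bases before the start of Igtp and at 33 to 25 before that of Serpina3g, and an interferon-stimulated response element (GAAA, any 2 bases, GAAA) at 34 to 25 bases before the start of Igtp. Searched on both strands, these letters occur by themselves in 5.42%, 7.02% and 2.98% of 32851 promoter windows of this length, so a match describes the letters and shows no binding. None of the 3 motifs lay in the windows of Dtx1, Fos, Klf2, Fcmr, Tap1, Psmb9, Ifi47 or the 3 starts of Fcer2a. Irgm1 held the response element at 2 overlapping places, Gbp7 held TTCNNNGAA at 2 places and the response element once, and 1 of 2 starts of Irf1 held TTCNNNGAA. The windows of Hes1 and Ly6a were not searched.

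Ighd-positive B cells took a larger share of the cells in the high-dose group than in the vehicle group. They were 400 of 3360 assigned barcodes in the vehicle group (11.9%, 95% interval 10.8 to 13.0), 365 of 3408 at the low dose (10.7%, 9.69 to 11.8) and 331 of 2143 at the high dose (15.4%, 13.9 to 17.0). The high dose thus exceeded the vehicle by 3.54 percentage points (limits 1.65 to 5.47), while the low dose differed by -1.19 points (-2.73 to 0.335). Neutrophil barcodes (at least 100 S100a8 and S100a9 UMIs, no B cell or Cd3 UMI) numbered 1075, 925 and 147, so the denominator held fewer neutrophils at the high dose, and its part in the difference was not tested. Of B cells by the same genes with or without Ighd, 78.9%, 79.2% and 86.6% were Ighd-positive, a difference of 7.75 points between high dose and vehicle (2.59 to 12.8). With each cell thinned to 1000 UMIs the difference in the share of assigned barcodes was 1.64 points and that in the share of B cells 0.383 points. When 3 Ighd UMIs were required they were 1.98 and 1.62 points.

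The members carried B cell genes, beside a low level of neutrophil RNA in most of them. After thinning to 1000 UMIs, Fcmr, the Fc receptor for IgM, was detected in 53.02%, 35.3% and 41.0% of members of the vehicle, low-dose and high-dose groups, against 0.202% of T cell barcodes (at least 3 Cd3 UMIs, no B cell UMI) and 0 of 498 neutrophil barcodes, where 3 counts, the limit set for a count of 0, would be a share of 0.602%. Without thinning the shares of members were 89.2%, 65.4% and 81.4%. These shares leave out the mixed barcodes defined next, and thinning kept 364, 331 and 307 members, with 496 T cell and 498 neutrophil barcodes whose median depths were 5028 and 5132.5 UMIs. Fcer2a, the follicular marker outside the rule, was detected in 30.2%, 17.5% and 19.2% of members after thinning (60.3%, 42.7% and 51.3% without it), against 0 of 496 T cell barcodes. Many members thus had no Fcer2a UMI, so the name follicular type is covered by this marker only in part, and Cd79a, Ms4a1 and Ighd are present by the rule.

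Neutrophil RNA was present at a low level in most members and at a high level in a few barcodes. The median member held 5 UMIs of S100a8 and S100a9 together in the vehicle group, 4 at the low dose and 5 at the high dose. However, 12 vehicle and 7 low-dose members held 20 or more, up to 1748 and 3431, and these carried 77.1% and 76.4% of all 8822 and 7645 such UMIs. At the high dose 1 member did, with 182 UMIs, 9.19% of 1980. The neutrophil markers summed to 5984, 5980 and 1669 CPM in all members. A member was called mixed when it held 20 or more S100a8 and S100a9 UMIs, or 5 or more UMIs of another set of markers. These sets were markers of other lineages, T cell receptor and T cell genes, basophil genes and the plasma cell gene Jchain. The neutrophil set was not the whole neutrophil list, of which the median member held 6 UMIs in each group. It named 17 vehicle, 9 low-dose and 3 high-dose members. The definition was made after the data were seen and named 30 vehicle, 21 low-dose and 13 high-dose members. Scrublet called 8, 5 and 0 members doublets, all of them among the mixed ones. Without mixed barcodes 370, 344 and 318 members remained, with 1496338, 1287077 and 1322784 UMIs, and the neutrophil markers summed to 1490, 1590 and 1529 CPM, alike in the 3 groups.

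**Figure D1:**
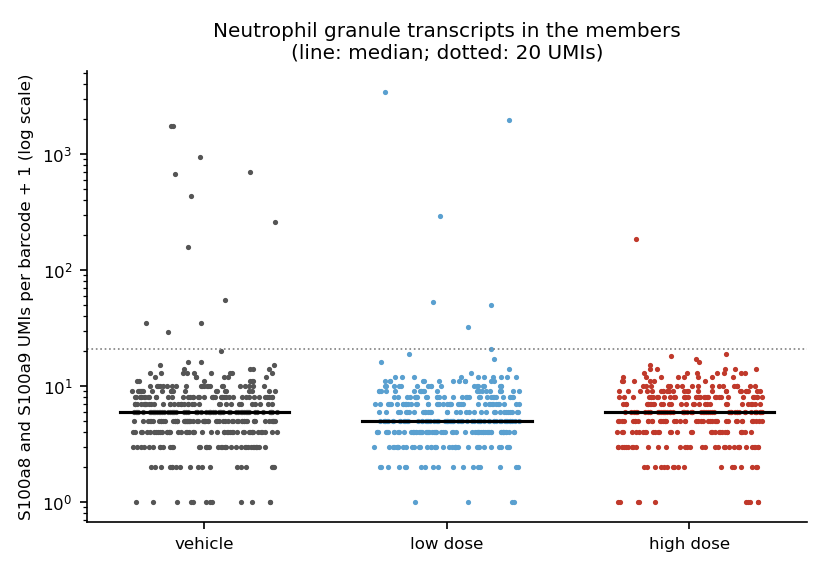
UMIs of the neutrophil genes S100a8 and S100a9 in each member (y axis, UMIs plus 1 on a log scale) by dose group, with the median as a line and 20 UMIs as a dotted line. The medians of 5, 4 and 5 lie together, while 12 vehicle, 7 low-dose and 1 high-dose barcodes lie at or above 20.

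Several other lists also rested on mixed barcodes. Monocyte and macrophage markers summed to 383, 138 and 71.7 CPM in all members and to 34.8, 39.6 and 47.6 CPM without mixed barcodes. NK cell markers summed to 4.54, 221 and 8.52 CPM and then to 3.34, 6.99 and 8.32 CPM. Basophil genes were at 1.70, 2.65 and 340 CPM, and 1 high-dose barcode held 235 Mcpt8 and 185 Prss34 UMIs. T cell markers were otherwise. They summed to 66.9, 50.4 and 37.6 CPM in all members and to 66.8, 52.8 and 37.0 CPM without mixed barcodes, highest in the vehicle group both times, and the barcode with most of them held 11.0%, 5.26% and 5.66%. Cd3d, Cd3e and Cd3g were at 0 by the rule, and the cytokine receptor Il7r led with 58, 31 and 14 UMIs. The part of these markers in the results was not tested. The dendritic cell genes Clec9a and Siglech, the epithelial genes Krt8 and Cldn4 and the endothelial gene Kdr were at 0. Other genes of these lists were not. Pecam1, which B cells also express, had 189, 132 and 185 UMIs. The epithelial gene Epcam had 19, 26 and 11 and the dendritic cell gene Flt3 5, 17 and 7. Levels and ratios below are of all members unless mixed barcodes are named.

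Across genes, few differed by 2-fold between high dose and vehicle, and fewer did so without mixed barcodes. Of 6132 genes that had 50 or more UMIs in the 2 groups together, 15 were at least 2-fold higher at the high dose (0.245%) and 110 at least 2-fold lower (1.79%), leaving out the 7 genes of the rule and variable segments. Without mixed barcodes the counts were 10 (0.175%) and 27 (0.472%) of 5717. Of the 15 higher genes 10 still had 50 UMIs and 4 of these were still 2-fold higher, and of the 110 lower genes 62 still had 50 UMIs and 17 were still 2-fold lower. When the barcode with most UMIs of the gene was left out of each group instead, 11 and 88 stayed past 2-fold. The median log2 ratio of all genes was -0.07, or -0.05 without mixed barcodes. Of all genes 40.7% had a ratio above 0, 4.60% an interval wholly above 0 and 10.0% one wholly below 0, against 43.0%, 4.22% and 7.28% without mixed barcodes. The counts over gene lists below stand against these shares, and abundant genes have narrower intervals.

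Among the 12 largest differences in each direction, several were carried by 1 barcode. Prtn3 (162, 230 and 5 UMIs), Lyz2 (466, 109 and 38) and Elane (60, 35 and 3), which encode granule and myeloid enzymes, had 152, 412 and 58 of their vehicle UMIs in a single barcode of 43474 UMIs. Of the other lower genes, Fn1 had 46 of 49 vehicle UMIs in its leading barcode, Pf4 54 of 83, Slpi 39 of 59, Tgfbi 31 of 51 and Saa3 184 of 348. The leading barcode held less of Hp (75 of 195), S100a6 (190 of 721) and Wfdc17 (241 of 961). S100a6, which encodes a calcium-binding protein, went from a log2 ratio of -2.34 to -0.79 (-1.14 to -0.45) without mixed barcodes, and Wfdc17 went from -2.71 to 0.14 (-0.27 to 0.54). On the higher side, Prss34, Mcpt8 and Ccl6 had 185, 235 and 142 UMIs in 1 barcode of 12888 UMIs (Prss34 and Mcpt8 encode proteases of basophils), and Hba-a1, a hemoglobin gene, had 56 of 73 high-dose UMIs in 1 barcode. Hes1, Ly6a, Serpina3g, Cr2, Rasgef1b and Gm47283 on the higher side and Fos on the lower side were spread more widely, with no more than 20 of 103 high-dose UMIs (Ly6a) or 16 of 118 vehicle UMIs (Fos) in 1 barcode.

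**Figure D2:**
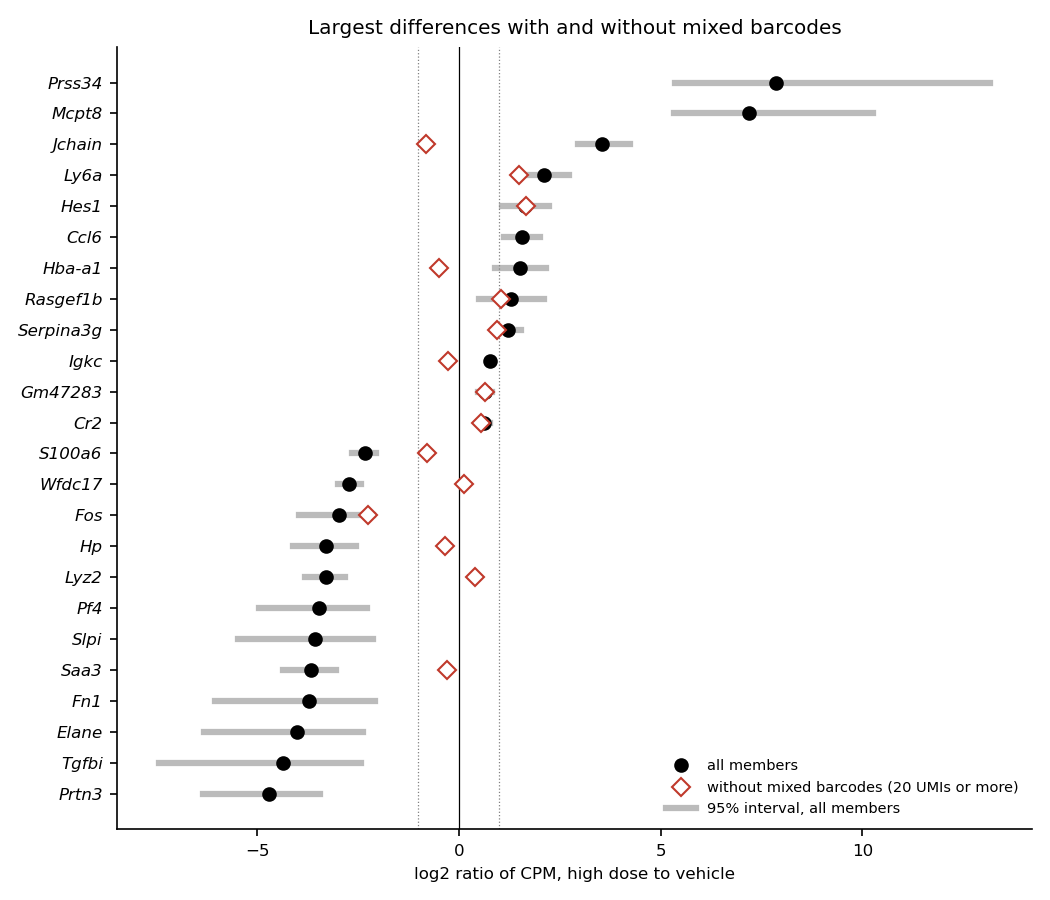
Log2 ratio of CPM, high dose to vehicle (x axis), for the 24 genes with the largest differences, as black points with 95% intervals as grey bars over all members and as open diamonds without mixed barcodes where at least 20 UMIs remained. Hes1, Cr2 and Gm47283 move little (Hes1 at 1.64 and 1.67) and Fos moves from -2.97 to -2.25, whereas Lyz2 goes from -3.29 to 0.40 and Jchain from 3.56 to -0.82 (18 and 9 UMIs).

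Immunoglobulin genes turned on 1 barcode as well. Igkc, the kappa light chain, was at 8286, 6749 and 14118 CPM and Ighm, the IgM heavy chain, at 2597, 2294 and 3431 CPM. In both the high-dose value stood highest. A single high-dose barcode of 19773 UMIs held 217 of the group's 226 Jchain UMIs, 9507 Igkc UMIs and 1754 Ighm UMIs, with 51 UMIs of the 3 B cell genes, 1 of Ighd and 28 of Xbp1, a transcription factor of antibody secretion. Without it the log2 ratio of high dose to vehicle was -0.15 for Igkc (-0.19 to -0.11) and -0.23 for Ighm (-0.29 to -0.16), in place of 0.77 and 0.40. Without all mixed barcodes, each of the 5 immunoglobulin constant genes counted lay below the vehicle at the high dose (median log2 ratio -0.27) and the interval of each excluded 0. Iglc1, a lambda constant gene, was then at 828, 621 and 536 CPM (log2 ratio -0.63, -0.76 to -0.49). Over all members the Igkc interval had excluded 0 on the other side (0.74 to 0.80). Such intervals do not cover the spread between cells.

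Hes1, a repressor that Notch signalling switches on, was higher at the high dose and was spread over many barcodes. It had 37, 51 and 92 UMIs, or 20.99 CPM in the vehicle group, 33.8 at the low dose and 65.3 at the high dose (Ensembl ENSMUSG00000022528, chr16:30064384-30067796 in GENCODE M21, GRCm38, plus strand). The low dose lay between the other 2 groups, and the high dose stood 3.11-fold above the vehicle (log2 ratio 1.64, 1.07 to 2.23). The ratio was 1.67 (1.06 to 2.31) without mixed barcodes, and the low dose then exceeded the vehicle by 0.76 (0.06 to 1.46). Hes1 was detected in 26 of 400 vehicle members and 60 of 331 high-dose members. After thinning it was detected in 1.37%, 2.11% and 5.21% of members, against 0.202% of T cell and 0.402% of neutrophil barcodes. Thinned shares of this size rest on few UMIs.

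Cr2 and Dtx1, which Notch2 also controls in marginal zone cells, were higher by less. Cr2, at chr1:195136811-195176716 on the minus strand, was at 352, 343 and 544 CPM, the high dose standing apart and the low dose at the vehicle's level. Its log2 ratio was 0.63 (0.47 to 0.78), or 0.56 (0.40 to 0.72) without mixed barcodes. Dtx1, a ubiquitin ligase of the Notch pathway, was at 80.6, 102 and 119 CPM, ordered by dose, with a log2 ratio of 0.57 (0.24 to 0.90) and of 0.49 (0.13 to 0.86) for the low dose without mixed barcodes. Notch2 itself was at 70.9, 63.6 and 68.2 CPM, with an interval of the high-dose ratio from -0.46 to 0.34. Of the marginal zone markers, Cd1d1 and Mzb1 differed by less than their intervals (0.39, -0.43 to 1.22, and -0.16, -0.33 to 0.02, without mixed barcodes). Over the 4 marginal zone markers counted the median log2 ratio was 0.48, against -0.05 over all genes.

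Members with the marginal zone arrangement of Cr2 without Fcer2a were more frequent at the high dose. Without mixed barcodes, 26 of 370 vehicle members (7.03%, 4.64 to 10.1), 25 of 344 low-dose members (7.27%, 4.76 to 10.5) and 48 of 318 high-dose members (15.1%, 11.3 to 19.5) had at least 3 Cr2 UMIs and no Fcer2a UMI. Thinned to 1000 UMIs, 3.30%, 3.63% and 11.4% held at least 2 Cr2 UMIs and no Fcer2a. In both countings the vehicle and low-dose shares lay together and the high-dose share above them. Cr2 was higher and Fcer2a lower at the high dose, and both define the class, so its share is no separate result. Whatever their Fcer2a, 9.46%, 8.72% and 17.3% of members held at least 5 Cr2 UMIs. Members with both Cr2 and Fcer2a were 34.9%, 26.2% and 37.4%.

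Within this class, all values by class being without mixed barcodes, the 3 groups had high Hes1. Summed over groups it was at 106 CPM (79.4 to 139) where Cr2 was present without Fcer2a, and at 28.9 CPM (22.3 to 36.9) in members with Fcer2a. Dtx1 was at 189, 369 and 233 CPM by group in the first class and at 74.9, 81.7 and 96.1 CPM in the second. Ighd was at 1117, 620 and 867 CPM in the first and at 1360, 1298 and 1139 CPM in the second. Klf2 was at 443, 295 and 216 CPM against 649, 767 and 384 CPM. In each group Dtx1 was thus higher and Ighd and Klf2 lower where Cr2 was present without Fcer2a. These 4 genes took no part in the division into classes, but Ighd is a gene of the membership rule, so its level is a description. Ighm was not higher in the first class, at 2324, 2443 and 2152 CPM against 2472, 2536 and 2174.5 CPM. The marginal zone marker Mzb1 was higher there, at 575, 635 and 436 CPM against 416, 412 and 346 CPM. Between the groups, however, Hes1 differed also in members with Fcer2a, at 16.3, 19.1 and 52.0 CPM (log2 ratio of high dose to vehicle 1.68, 0.78 to 2.64, from 15 and 39 UMIs). In members with neither Fcer2a nor 3 Cr2 UMIs it was at 13.2, 33.0 and 61.5 CPM, with a ratio that rests on 6 and 21 UMIs (2.22, 0.86 to 3.81). Where Cr2 was present without Fcer2a, it was at 82.1, 111 and 116 CPM, and the interval of 0.50 spanned 0 (-0.59 to 1.72, from 10 and 27 UMIs).

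**Figure D3:**
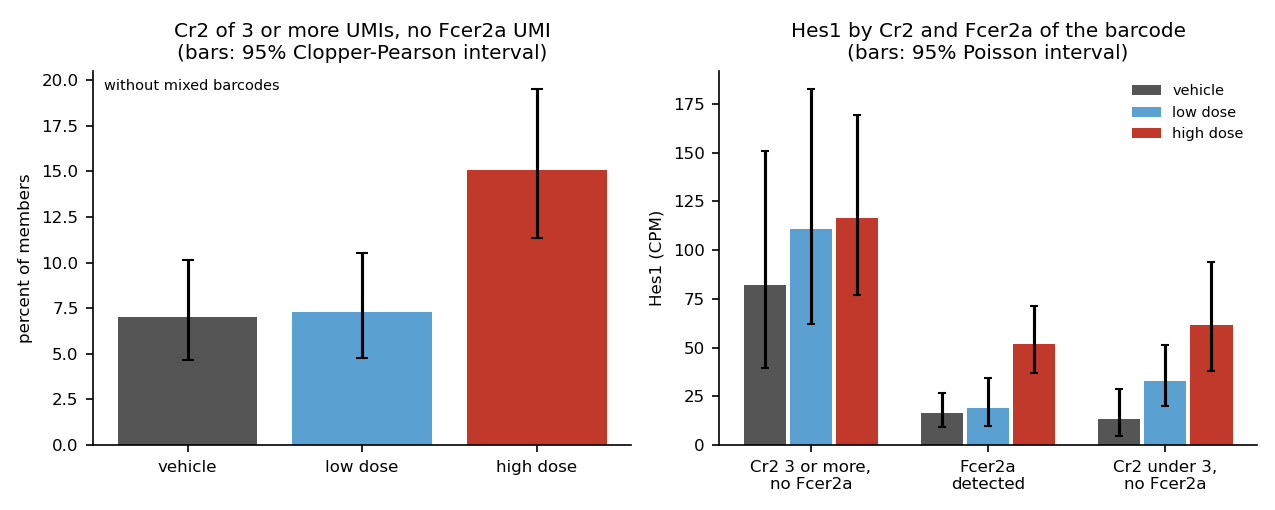
Left, percent of members without mixed barcodes that held at least 3 Cr2 UMIs and no Fcer2a UMI by dose group, with 95% Clopper-Pearson intervals (7.03%, 7.27% and 15.1%). Right, Hes1 in CPM with 95% Poisson intervals in 3 classes of members by Cr2 and Fcer2a, which is high in all groups of the first class and differs between vehicle and high dose in the other classes (16.3 against 52.0 CPM in members with Fcer2a).

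Genes known to follow interferon were higher at the high dose in part. Of 21 interferon-stimulated genes counted, 13 had a ratio above 0, 5 had an interval wholly above 0 (all genes 4.60%) and 3 wholly below, with a median log2 ratio of 0.28. Without mixed barcodes these were 10, 5 and 3 of 19, with a median of 0.08, and the median of the low dose was -0.22.

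Ly6a, a surface protein raised by interferon, had 30, 10 and 103 UMIs, or 17.0, 6.63 and 73.1 CPM, lowest at the low dose. The high dose stood 4.30-fold above the vehicle (log2 ratio 2.10, 1.50 to 2.74), or 1.50 (0.87 to 2.16) without mixed barcodes, and the barcode with most Jchain alone held 20 of the 103 UMIs. Ly6a had a UMI in 4.86%, 1.16% and 10.7% of members without mixed barcodes, but after thinning in 3.02%, 0.302% and 2.93%, so that the vehicle and high-dose shares no longer differed beyond their intervals, and T cell barcodes had 3.63%. Serpina3g, an inhibitor of cysteine proteases that lymphocytes express on activation, was at 72.0, 64.9 and 167 CPM, with the low dose at the vehicle's level. Its log2 ratio was 1.21 (0.89 to 1.53), or 0.93 (0.60 to 1.27) without mixed barcodes, and after thinning it was detected in 6.04%, 6.95% and 13.4% of members against 1.21% of T cell barcodes.

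The immunity-related GTPases Igtp (18.2, 17.9 and 32.0 CPM) and Irgm1 (43.7, 36.4 and 67.5 CPM) had log2 ratios of 0.82 (0.13 to 1.52) and 0.63 (0.18 to 1.08). The transcription factor Irf1 was at 64.1, 72.2 and 92.3 CPM (0.53, 0.15 to 0.90) and the membrane protein gene Ly6e at 404, 449 and 577 CPM (0.51, 0.36 to 0.66). The 6 genes from Ly6a to Ly6e were named by their values, so their common direction is no separate result. Serpina3g and Irf1 are not members of the list. Genes of the list in the other direction were Ifi27l2a (-0.37, -0.59 to -0.15), Ifi203 (-0.25, -0.45 to -0.06) and Samhd1 (-0.20, -0.40 to -0.01) without mixed barcodes. In T cell barcodes of the same library, Ly6a was at 23.3, 20.4 and 50.4 CPM, with a log2 ratio of 1.11 (0.73 to 1.51).

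Class I antigen presentation, which interferon also controls, differed little at the high dose. Of 13 genes, 12 had a ratio above 0 and 6 an interval above 0, with a median of 0.14, and without mixed barcodes these were 10 and 3 with a median of 0.12. Tap1, which moves peptides into the endoplasmic reticulum, had a log2 ratio of 0.49 (0.14 to 0.84), and Psmb9, an immunoproteasome subunit, was at 193, 149 and 250 CPM (0.37, 0.15 to 0.59). At the low dose the median of the class I genes was -0.23 without mixed barcodes, and B2m, the light chain of the class I molecule, was then at 1384, 1193 and 1462 CPM. Class II genes had a median of 0.05 at the high dose with 4 intervals above 0, or of -0.04 with 2 without mixed barcodes, and of -0.33 at the low dose, where all 11 lay below the vehicle (all genes 49.1%). Without mixed barcodes the class II activator Ciita was at 313, 207 and 279 CPM and H2-Oa, which tempers peptide loading, at 258, 162 and 240 CPM. In both the low dose was lowest and the high dose near the vehicle.

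**Figure D4:**
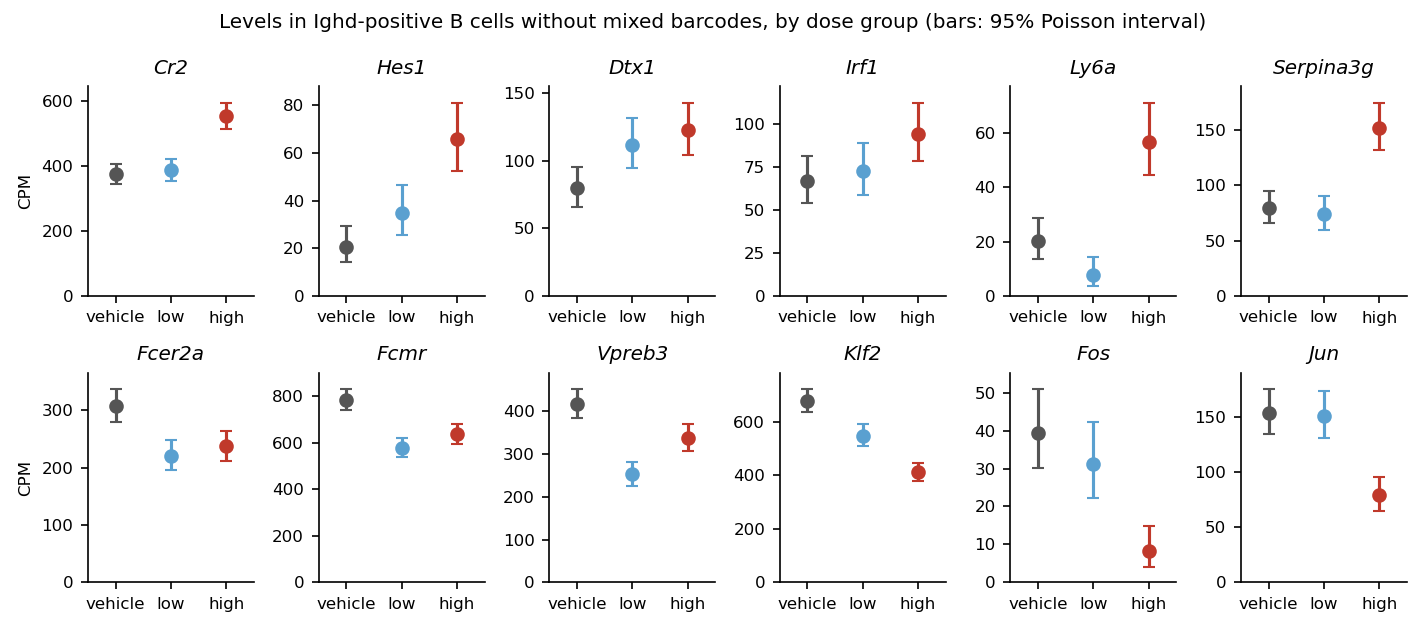
CPM of 12 genes in members without mixed barcodes (y axes start at 0) by dose group, with 95% Poisson intervals. Hes1, Cr2, Ly6a and Serpina3g are highest and Klf2, Fos and Jun lowest at the high dose, while Fcer2a, Fcmr and Vpreb3 are lowest at the low dose.

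Klf2 was the B lineage transcription factor with the largest difference. It was at 672 CPM in the vehicle group, 529 at the low dose and 400 at the high dose, a decrease in order of dose with no overlap of the intervals (log2 ratio -0.75, -0.90 to -0.60, from 1185 and 563 UMIs). It differed alike without mixed barcodes (-0.72, -0.87 to -0.57) and in members with Fcer2a (-0.76, -0.96 to -0.55), although in these the low dose stood above the vehicle. In members with neither Fcer2a nor 3 Cr2 UMIs Klf2 was at 801, 390 and 604 CPM (-0.41, -0.66 to -0.16), lowest at the low dose, so the order of dose did not hold in every class. T cell barcodes had 826, 826 and 851 CPM. Spib (162, 108 and 111 CPM), Pou2af1 (391, 278 and 277 CPM) and Tcf3 (112, 84.8 and 73.8 CPM), which act in B cell development and antigen receptor responses, were lower at both doses, with log2 ratios of -0.54, -0.50 and -0.60 at the high dose. Of 21 such factors 3 had an interval above 0 and 5 below, with a median of -0.00. Without mixed barcodes 1 lay above and 6 below (all genes 4.22% and 7.28%), with a median of -0.02. Pax5 and Ebf1, which hold B cell identity, differed by -0.03 and 0.02.

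Among immediate early genes, the AP-1 members Fos, Fosb, Jun and Jund were lower at the high dose, and Junb was not once mixed barcodes were left out. Fos had 118, 50 and 12 UMIs, or 66.9, 33.1 and 8.52 CPM, with a log2 ratio of -2.97 (-3.97 to -2.12). Without mixed barcodes it was at 39.4, 31.1 and 8.32 CPM (-2.25, -3.32 to -1.30), and the low dose then lay near the vehicle. Neutrophil barcodes express it widely, with a UMI in 45.8% after thinning against 3.30%, 3.02% and 0.977% of members and 1.21% of T cell barcodes, so the high-dose share lies at the T cell share. Jun was at 153, 137 and 88.8 CPM (-0.78, -1.10 to -0.47), Fosb at 57.9, 28.5 and 27.0 CPM (-1.10, -1.68 to -0.55) and Klf6, a related early factor, at 94.2, 92.1 and 46.9 CPM (-1.01, -1.44 to -0.59). Fosb was low at both doses, whereas Jun and Klf6 stood near the vehicle at the low dose. Without mixed barcodes Jund was at 521, 477 and 358 CPM (-0.54, -0.71 to -0.38) and Junb at 151, 252 and 150 CPM (-0.01, -0.29 to 0.28), highest at the low dose. Egr1, which the antigen receptor induces, went the other way with 13.6, 20.5 and 24.1 CPM (0.83, 0.03 to 1.64), and without mixed barcodes the ratio was 1.50 (0.49 to 2.60) from 12 and 30 UMIs, too few to be counted in the list. Of 18 genes of the list 4 had an interval above 0 and 8 below, and 4 were at least 2-fold lower, while without mixed barcodes 2 of 17 lay above, 8 below (all genes 4.22% and 7.28%) and 2 were at least 2-fold lower. T cell barcodes showed Fos at 31.7, 18.7 and 17.8 CPM and Jun at 99.6, 73.0 and 49.8 CPM.

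The follicular markers Fcer2a and Fcmr and the transitional markers counted were lower at the high dose. Of 6 follicular markers counted, 2 had a ratio above 0, near the share of all genes (40.7%), 1 had an interval above 0 and 2 below (4.60% and 10.0%), with a median of -0.16. Fcer2a was at 280, 197 and 234 CPM, Fcmr at 731, 518 and 623 CPM and Ighd at 1213, 995 and 1074 CPM, each lowest at the low dose. Their log2 ratios at the high dose were -0.26 (-0.46 to -0.06), -0.23 (-0.35 to -0.10) and -0.17 (-0.27 to -0.08), the last in a gene of the rule. Ms4a1, which encodes CD20, was at 1069, 889 and 1284 CPM. Among transitional markers, all 3 counted had intervals below 0 with a median of -0.54. Spib, reported above with the transcription factors, was 1 of the 3. Vpreb3, a surrogate light chain gene that young B cells keep, was at 407, 225 and 329 CPM (-0.30, -0.48 to -0.13), with a ratio of -0.73 (-0.92 to -0.53) at the low dose without mixed barcodes. Cd24a, a surface protein high in young B cells, was at 159, 146 and 109 CPM (-0.55, -0.84 to -0.26). Cd93, the defining marker of transitional B cells, had 19, 7 and 3 UMIs.

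The lower Vpreb3 and Cd24a lay in members without Fcer2a and with little Cr2. In members with neither Fcer2a nor 3 Cr2 UMIs, Vpreb3 was at 700, 187 and 363 CPM (-0.95, -1.26 to -0.64) and Cd24a at 210, 97.1 and 73.2 CPM (-1.52, -2.22 to -0.87). In members with Fcer2a the high-dose ratios were 0.19 (-0.05 to 0.44) and -0.13 (-0.52 to 0.26). Where Cr2 was present without Fcer2a, Vpreb3 was at 164, 185 and 237 CPM (0.53, -0.23 to 1.35) and Cd24a at 131, 199 and 112 CPM (-0.23, -1.18 to 0.77, from 16 and 26 UMIs). The survival gene Bcl2 was at 265, 153 and 203 CPM (-0.39, -0.60 to -0.17), lowest at the low dose, and its relatives of the BAFF and survival list (10 genes, median -0.02) included Tnfrsf13c, the BAFF receptor, at 315, 262 and 376 CPM.

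Activation genes and receptors were higher for some members of their lists. Of 23 antigen receptor and coreceptor genes 5 had intervals above 0 and 2 below (4 and 2 without mixed barcodes), with a median of 0.03. Among those above were the inhibitory receptor Cd22 (224, 209 and 299 CPM, 0.42, 0.21 to 0.62) and the adaptor Bank1 (584, 622 and 728 CPM, 0.32, 0.19 to 0.44). In the NF-kB list of 20 genes the adhesion molecule Icam1 (31.2, 42.4 and 56.1 CPM, 0.85, 0.33 to 1.37) and the survival gene Bcl2a1b (31.2, 43.7 and 51.1 CPM, 0.71, 0.19 to 1.25) had intervals above 0, and the median was 0.17. Without mixed barcodes the median was 0.05, and Rel, an NF-kB subunit (-0.29), and the costimulatory receptor Cd40 (-0.34) had intervals below 0 beside those 2 above. Nfkbia, which encodes the inhibitor of NF-kB, was at 324, 309 and 365 CPM (0.17, -0.00 to 0.35). Icam1 and Bcl2a1b stood in order of dose, and Nfkbia did not. Cd83, a surface marker of activated B cells, was at 112, 115 and 170 CPM (0.61, 0.33 to 0.89). Gpr183, the oxysterol receptor that places B cells at the outer follicle, was at 74.9, 78.9 and 121 CPM (0.69, 0.35 to 1.03). Of the 18 homing genes it was the 1 with an interval above 0, and the sphingosine receptor S1pr4 (61.3, 66.9 and 42.6 CPM, -0.52) and the adhesion receptor Cd44 had intervals below. Without mixed barcodes the interval of Cd44 spanned 0 (-1.46 to 0.44), and the chemokine receptor Cxcr4 had one below (138, 118 and 107 CPM, -0.36, -0.68 to -0.04).

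Growth and chaperone genes showed small shifts. Myc, a driver of growth, was at 43.7, 43.7 and 66.7 CPM (0.61, 0.16 to 1.07), and without mixed barcodes at 34.1, 49.7 and 59.7 CPM (0.81, 0.28 to 1.35). Of 17 growth genes 9 had a ratio above 0 in all members (median 0.03, with 1 interval above 0 and 2 below), and 15 did without mixed barcodes (median 0.13). Cytosolic ribosomal protein genes were higher in 77 of 83, with 67 intervals above 0 and 1 below, but by a median of only 0.10 on the log2 scale. Hspa5, the main chaperone of the endoplasmic reticulum, was at 231, 270 and 325 CPM (0.49, 0.29 to 0.68), and of 15 secretory genes 5 had intervals above 0 and none below. Without mixed barcodes Hspa5 was the 1 gene of 14 with an interval above 0. Creld2 and Xbp1 of this list had ratios of 0.93 and 0.62 in all members and of 0.25 and 0.15, with intervals spanning 0, without mixed barcodes. The heat shock regulator Hsf1 was at 27.2, 34.5 and 49.7 CPM (0.87, 0.32 to 1.43). Its list of 11 had a median of 0.12, or of 0.20 without mixed barcodes. There were 3 and then 6 intervals above 0, and 1 below both times. At the low dose all 11 genes lay above the vehicle, with a larger median of 0.28, or of 0.29 without mixed barcodes.

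Some of the FACT and chromatin genes, FACT being what CBL0137 targets, were lower at the high dose. Ssrp1 and Supt16, the subunits of FACT, were at 112, 116 and 91.5 CPM and at 122, 118 and 86.9 CPM without mixed barcodes, with high-dose ratios of -0.29 (-0.64 to 0.06) and -0.49 (-0.84 to -0.15). Both lay lowest at the high dose, and the interval of Ssrp1 spanned 0. H3f3a, which encodes the histone variant H3.3, was also without mixed barcodes at 2501, 2224 and 1872 CPM (-0.42, -0.49 to -0.34) and the DNA-bending protein gene Hmgb1 at 475, 465 and 379 CPM (-0.33, -0.50 to -0.16). Of 16 genes of this list 7 then had intervals below 0 (all genes 7.28%) and none above, 3 had a ratio above 0, among them H2afy (0.16, -0.06 to 0.37) and H2afj (0.11, -0.11 to 0.34), with a median of -0.25 at the high dose and -0.03 at the low dose. In all members the median of 17 was -0.42, with Hmgb2 at 379, 333 and 164 CPM, a gene abundant in dividing cells that was at 219, 184 and 161 CPM without mixed barcodes.

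Of the gene lists, those of cell type markers aside, the cell cycle list moved most when mixed barcodes were left out. Cell cycle genes had a median of -0.75 over 13 genes, 5 of them 2-fold lower (Ube2c at 45.9, 21.9 and 7.10 CPM), but 0.04 over 11 genes without mixed barcodes. Of 8 p53 target genes 1 had a ratio above 0 (median -0.21), and the median was -0.07 without mixed barcodes. The nuclease gene Aen of this list was at 22.7, 25.8 and 11.4 CPM (interval of the log2 ratio -1.93 to -0.13). Glycolysis genes moved from a median of -0.16 to 0.08 and mitochondrially encoded genes stayed at -0.01. Costimulation genes had a median of -0.07, or of -0.17 with 3 of 9 intervals below 0 without mixed barcodes, cytokine receptor and signalling genes of -0.07 with the kinase Jak3 at least 2-fold higher (11.3, 18.6 and 25.6 CPM, 1.17, 0.34 to 2.04), and necroptosis and nucleic acid sensing genes of 0.10 with no interval excluding 0 among 7. The 6 cholesterol synthesis genes all had ratios above 0 (median 0.34), none with an interval that excluded 0. The neutrophil gene Il1b was at 41.4, 30.5 and 6.39 CPM in all members and at 2.67, 3.11 and 6.05 CPM without mixed barcodes, and Cd84, an adhesion receptor of leukocytes, was at 131, 130 and 128 CPM.

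**Figure D5:**
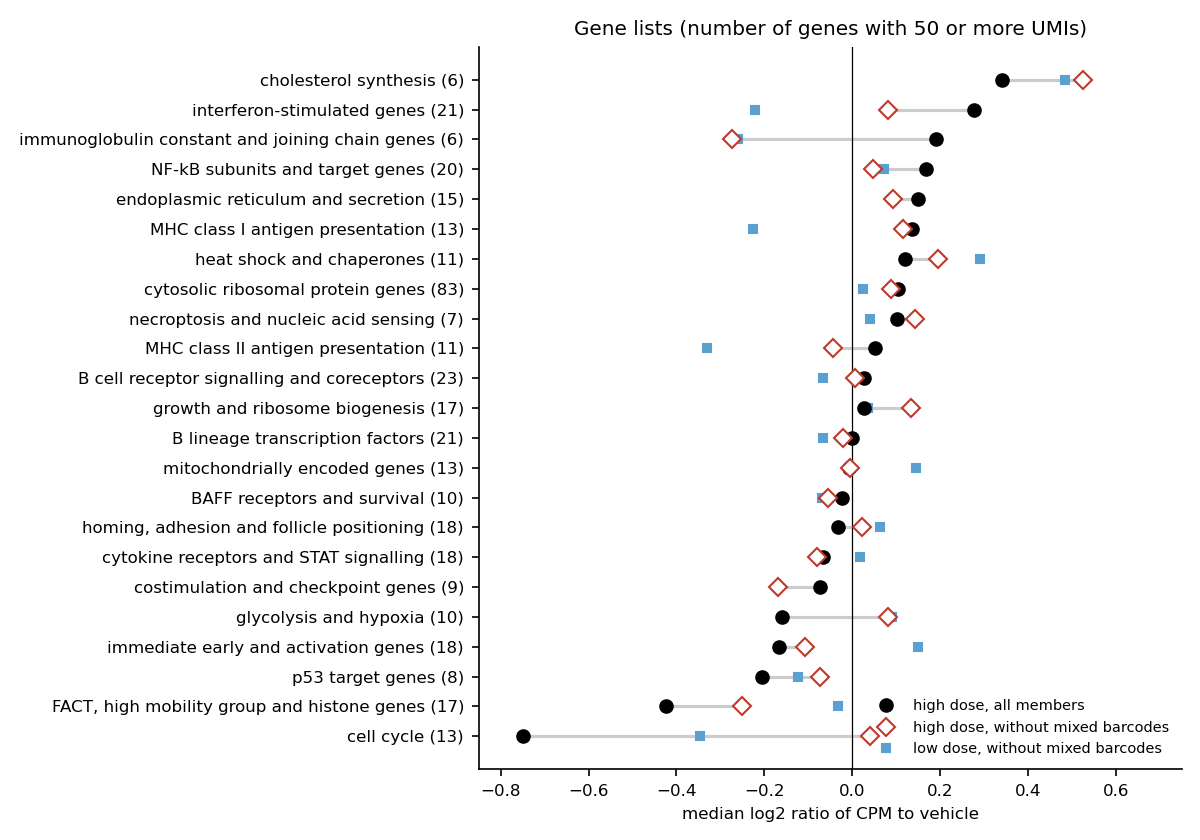
Median log2 ratio to vehicle (x axis) of 23 gene lists, with the number of genes counted in all members, for the high dose in all members (black points) and without mixed barcodes (open diamonds) and for the low dose without mixed barcodes (squares). The cell cycle list moves from -0.75 to 0.04 and the immunoglobulin list from 0.19 to -0.27, and the class I and class II lists lie at -0.23 and -0.33 at the low dose.

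The low dose had differences of its own. In all members 48 of 6353 genes were at least 2-fold higher than in the vehicle group (0.756%) and 32 at least 2-fold lower (0.504%), and without mixed barcodes 38 (0.662%) and 24 (0.418%) of 5740. The vehicle group is shared by both comparisons. In all members Gzma, Ccl5, Hba-a1, Ctsg and Hbb-bs led, and single barcodes held 71 of 118, 100 of 175, 625 of 650, 92 of 92 and 1319 of 1434 of their low-dose UMIs.

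Without mixed barcodes other genes led by the same ranking, spread over many members. They were picked for their values at the low dose. Socs3, a feedback inhibitor of cytokine receptors, was at 8.69 CPM in the vehicle group, 113 at the low dose and 21.2 at the high dose (low-dose log2 ratio 3.70, 2.88 to 4.64), with no more than 8 of 145 UMIs in 1 barcode. Pmepa1, a target and inhibitor of TGF-beta signalling, was at 27.4, 152 and 46.9 CPM (2.47, 1.98 to 3.00) and was detected after thinning in 1.65%, 13.6% and 3.91% of members, against 4.23% of T cell barcodes. Cebpb, a transcription factor of inflammatory responses, was at 30.1, 116 and 43.8 CPM (1.94, 1.45 to 2.46). In all 3 the low dose stood far above both other groups. The adhesion protein gene Emb (4.01, 48.9 and 6.80 CPM), the cyclic AMP-responsive factor gene Crem (9.36, 46.6 and 18.9 CPM), Stat4 (16.7, 51.3 and 12.9 CPM) and the receptor gene Gpr171 (56.1, 137 and 77.9 CPM) had the same order of levels or nearly so, with log2 ratios of 3.61, 2.32, 1.62 and 1.28. Cd200, an inhibitory ligand, was lower at 103, 45.8 and 71.8 CPM (-1.17, -1.63 to -0.73).

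The same rule found 199 members in the library labelled spleen, of which 21 were in the vehicle group, 27 at the low dose and 151 at the high dose. They were 2.56%, 2.05% and 6.44% of assigned barcodes, a difference between high dose and vehicle of 3.88 points (2.24 to 5.32). Without mixed barcodes the 19 vehicle members held 44957 UMIs, so ratios there are coarse. Klf2 was at 1023, 1332 and 583 CPM (log2 ratio -0.81, -1.27 to -0.33) and Jun had a ratio of -1.40 (-1.94 to -0.82). Cr2 rested on 5, 6 and 211 UMIs (1.97, 0.73 to 3.61). Ly6a had 0, 0 and 111 UMIs, and against the limit of 3 counts over the vehicle group (66.7 CPM) the high dose at 229 CPM was at least 3.44-fold higher. For Hes1, with 0, 0 and 7 UMIs, the high dose of 14.5 CPM lay under that limit and no difference was detectable at this depth. Serpina3g went the other way, at 423, 20.97 and 236 CPM from 19, 2 and 114 UMIs (-0.84, -1.55 to -0.06).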

How the data were processed

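Single-cell libraries were made on the 10x Genomics platform. Per library, the authors deposited a cell-filtered matrix whose entries are raw UMI counts of each gene and hashtag in each barcode, neither normalized nor annotated with cell types. The matrix header names Cell Ranger 5.0.0, and the submitters' processing notes name Cell Ranger 6.0.0, Seurat and the build mm10. The study's methods name a later Cell Ranger, so the version is unsettled. All 162 named genes were placed with GENCODE M21 (GRCm38), and promoter windows came from RefSeq (GRCm38.p6).

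Members, gene lists and comparisons were chosen with earlier results of these data known. UMIs were summed over the members of a group and scaled to 1000000 (CPM). Genes were counted, over all genes and in lists, where both groups together held 50 UMIs or more. Some ratios of single genes by class, without mixed barcodes or in the other library rest on fewer. Since each group was 1 pooled sample, no test was run, and a gene was called by a fold of 2. For a count of 0 the limit was set at 3 counts. The genes named were the markers and genes of the rule, the 12 largest differences in each direction (ranked by the bound of the 95% interval nearest 0), up to 4 members of each list by the same ranking, and Il1b, Cd84 and Nfkbia. Further genes, among them Dtx1, Igtp, Irf1, Vpreb3, Jun, Fosb, Bcl2, Cd83, the T cell comparison, the Cr2 and Fcer2a classes and the low-dose leaders, were chosen after their values were seen, as was the definition of mixed barcodes. The ribosomal list left out Rps6k genes and pseudogenes. Barcodes with several hashtags were dropped by the hashtag rule, and Scrublet, which called 248 of 9591 barcodes doublets, served in an alternative. Thinning drew 1000 UMIs per barcode with a fixed seed, and the T cell and neutrophil barcodes it was compared with were 500 drawn from the vehicle and high-dose groups.

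The ratio and its interval were tested on simulated data with known changes. Those counts were Poisson draws from the group totals, so they cannot show how intervals behave where 1 barcode holds many UMIs. Alternatives covered the UMI minimum, the CPM denominator, centring, means over cells, thinning, HTODemux of Seurat 5.3.0 (quantile 0.99), a stricter hashtag rule, a filter on genes and mitochondrial UMIs, doublets, depth, the Ighd minimum, both doses together and the other library. Python 3.11.15, numpy 2.4.6, pandas 2.3.3, scipy 1.17.1, scanpy 1.11.5, matplotlib 3.10.9 and R 4.3.3 were used. The 680 barcodes without a hashtag call and the other experiments of the study were not analysed here. For the interferon list, a gene is counted in it but not reported here by itself.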

Additional observations from a re-analysis of the deposited data

Results flagged for a closer look

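For 3 genes the ratio of high dose to vehicle had opposite directions in the 2 libraries without mixed barcodes, with intervals that excluded 0 in both. The difference between libraries was not tested, and the library labelled spleen had 19 vehicle members. Serpina3g had a log2 ratio of 0.93 (library labelled liver) and -0.84 (library labelled spleen). Hmgb2, a chromatin gene high in dividing cells, had -0.44 and 1.44. The mitochondrially encoded mt-Co1 had -0.054 and 0.70.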

How the results depend on the processing

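No paired analysis was possible because each group was 1 pooled sample in each library, and no replicate could be left out. Against 15 genes at least 2-fold higher at the high dose, the count was 119 with a minimum of 20 UMIs, 4 with a minimum of 200, 23 with CPM without immunoglobulin, ribosomal and mitochondrial genes, 39 with the mean over cells, 9 with thinning, 38 with both doses together, 100 in the library labelled spleen and 86 there without mixed barcodes. Against 110 lower genes it was 319 and 26 with those minimums, 21 with thinning, 58 with HTODemux, 61 with the stricter hashtag rule, 73 without Scrublet doublets, 24 without the deepest 10% of barcodes or those with 20 S100a8 and S100a9 UMIs, 34 with 3 Ighd UMIs, 189 in all B cells, 58 with both doses together, 27 without mixed barcodes and 43 in the library labelled spleen without them. At the low dose, against 48 higher genes, it was 181 and 12 with the minimums, 89 with the mean over cells, 19 with thinning, 105 in all B cells, 21 in the library labelled spleen and 22 there without mixed barcodes. Against 32 lower genes it was 160 and 1, 18 with 10 CPM added, 50, 10, 20 with HTODemux, 15 without those deep or S100a8 and S100a9 barcodes, 21 with 3 Ighd UMIs, 109 in all B cells and 4 in the library labelled spleen without mixed barcodes. Of the 15 higher genes 12 remained with HTODemux, 13 without Scrublet doublets and 1 in the library labelled spleen, and of the 110 lower genes 51, 69 and 16. Fewer remained with thinning (1 of the 15 and 9 of the 110) and without those deep or S100a8 and S100a9 barcodes (4 and 13). The Ighd-positive share of B cells (7.75 points) moved to 1.62 with 3 Ighd UMIs, 0.383 with thinning and 28.3 in the library labelled spleen, and the share of assigned barcodes (3.54 points) to 1.64 with thinning and 0.634 with both doses together.

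Changes of direction were screened only for named genes and lists at least 2-fold apart in all members. Smaller ratios also turned, among them Igkc (0.77 to -0.27) and the cell cycle list (-0.75 to 0.04) without mixed barcodes. In the screen, some log2 ratios changed direction. Without the deepest 10% and the barcodes with 20 S100a8 and S100a9 UMIs, left out together, these were Jchain (-1.60), Lyz2 (0.46), Wfdc17 (0.15), S100a9 (0.051) and the neutrophil list (0.051). With 3 Ighd UMIs they were Jchain (-1.17), Lyz2 (0.22), Hist1h1b (1.65) and Top2a (1.97). Without mixed barcodes they were Jchain (-0.82), Hba-a1 (-0.50), Lyz2 (0.40) and Wfdc17 (0.14), and without the barcode with most UMIs of the gene Jchain (-0.75), Ccl6 (-2.68), Hba-a1 (-0.50) and the monocyte and macrophage list (0.91). In all B cells Hba-a1 was at -3.24, and with both doses together Hist1h1b was at 0.46. In the library labelled spleen the ratio turned for Ccl6 (-3.27), Serpina3g (-0.39), Saa3 (1.42), Hp (1.26), Hmgb2 (1.47), Ube2c (1.61), Top2a (2.15), S100a9 (2.15), Cenpa (0.49) and the neutrophil list (1.52), and there without mixed barcodes for Serpina3g (-0.84), S100a6 (1.57), Hmgb2 (1.44), Top2a (2.30), S100a9 (0.57) and Vim (1.27). The cause was not tested. Hes1 and Fos changed direction under no alternative that gave them a value, and Cr2, Klf2 and Jun were below the 2-fold limit of the screen. Of 157 named genes, 37 had too few UMIs after thinning and 60 in the library labelled spleen without mixed barcodes, and no value was set for them. The median ratio of all genes moved by less than 0.1 under each scaling. Depth limited every gene under 50 UMIs over both groups.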
